A study of Mus musculus with 2 samples.

Results

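A module of 52 interferon-stimulated antiviral effector genes was followed in mouse cardiac myofibroblasts treated with siRNA against *Vgll3*. The members were chosen by gene symbol, as genes known to be induced by interferon that act against viruses or in the same response. All 52 were found among the 24532 genes of the count table, and all had at least 1 read. Of these, 47 were in the tables of TPM (a level corrected for transcript length and depth), and 43 passed the filter on low levels that is described with the comparison. The cells were cardiac myofibroblasts of mice labelled C57BL/6 (C57BL/6J in the study's methods for isolated myofibroblasts), isolated 3 days after myocardial infarction (MI). The study's methods describe male mice of 8 to 10 weeks for MI. In DMEM that contained 10% FBS they received 12.5 nM of a control siRNA (siCtrl) or of an siRNA against *Vgll3* (si*Vgll3*) and were cultured for a further 72 h. Both groups shared the infarction, the culture and the lipid transfection, each used 1 siRNA, and each was sequenced as 1 library. The number of animals behind each library was not given in the sources used here. Every comparison below is therefore between 2 libraries, with no replicate and no test.

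Interferon-stimulated genes are switched on when a type I interferon binds the receptor IFNAR and the kinases JAK1 and TYK2 activate STAT factors. A complex that contains STAT2 and IRF9 then binds the interferon-stimulated response element (ISRE), a pair of GAAA repeats held a fixed distance apart. The proteins made sense foreign nucleic acid, degrade viral RNA, block translation of viral RNA or keep viruses from entering or leaving the cell. Fibroblasts are a classical cell type for this response, and many of the genes have a basal level without added interferon. VGLL3 is a transcription cofactor that binds TEAD factors, whose core motif is GGAATG.

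The promoter windows are shown first, because the ISRE is the element through which type I interferon is known to act. A window of 300 bases, from 250 before to 50 after an annotated start site, was at hand for 40 of the 52 members (RefSeq, GRCm38.p6). The ISRE core, spelled GAAANNGAAA and searched on both strands, was in the windows of 18 of the 40 members (45.0%), against 3.99% of 27025 genes with a window. The stricter letters GAAANNGAAACT, which contain the core, were in 10 members (25%) and in 0.303% of all genes. The sites below come from members with high levels, with the largest differences between the libraries, or with a core but a small difference. Each is 30 bases, 5′ to 3′ on the strand of the gene, with the core in capitals. Sites whose capitals begin with TTTC hold the core on the other strand.

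Isg15, chr4:156200871-156200900, minus strand: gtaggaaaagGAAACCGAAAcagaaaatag
Ifit1, chr19:34640794-34640823, plus strand: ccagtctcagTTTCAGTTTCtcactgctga
Ifit3, chr19:34583397-34583426, plus strand: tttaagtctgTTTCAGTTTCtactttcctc
Oas1a, chr5:120907520-120907549, minus strand: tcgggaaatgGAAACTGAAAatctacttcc
Ddx60, chr8:61928058-61928087, plus strand: gagcagaagaGAAACCGAAActatccttca
Rsad2, chr12:26456553-26456582, minus strand: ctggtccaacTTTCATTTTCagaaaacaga
Bst2, chr8:71537583-71537612, minus strand: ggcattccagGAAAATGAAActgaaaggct
Ifitm3, chr7:141010706-141010735, minus strand: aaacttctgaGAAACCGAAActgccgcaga
Eif2ak2, chr17:78882535-78882564, minus strand: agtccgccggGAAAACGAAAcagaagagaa
Trim21, chr7:102565450-102565479, minus strand: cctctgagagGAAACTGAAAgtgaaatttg

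In all, 30 cores were found, 21 of them before the start site and 9 after it, between -188 and 32 bases from it. More than 1 core was present in 11 of the 18 members, with overlapping cores each counted. The cores of *Oas1a*, *Oas1g*, *Bst2* and *Trim21* overlapped within the window, and those of *Trim30a* lay in separate windows. In *Isg15*, which encodes the ubiquitin-like modifier ISG15, 3 cores overlapped each other. Its whole window is printed because these cores run into a single stretch, which is in capitals.

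Isg15 promoter window, chr4:156200769-156201068, minus strand: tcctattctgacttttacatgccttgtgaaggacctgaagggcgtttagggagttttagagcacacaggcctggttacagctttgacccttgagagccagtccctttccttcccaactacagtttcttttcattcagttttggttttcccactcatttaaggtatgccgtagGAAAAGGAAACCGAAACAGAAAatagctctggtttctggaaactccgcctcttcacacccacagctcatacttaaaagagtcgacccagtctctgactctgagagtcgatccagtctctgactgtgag

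*Ifit2* is printed for contrast, as the member of the IFIT family with the smallest difference between the libraries. Neither of its 2 windows held the core, which says only that these letters were not in those windows.

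Ifit2 promoter window, chr19:34550444-34550743, plus strand: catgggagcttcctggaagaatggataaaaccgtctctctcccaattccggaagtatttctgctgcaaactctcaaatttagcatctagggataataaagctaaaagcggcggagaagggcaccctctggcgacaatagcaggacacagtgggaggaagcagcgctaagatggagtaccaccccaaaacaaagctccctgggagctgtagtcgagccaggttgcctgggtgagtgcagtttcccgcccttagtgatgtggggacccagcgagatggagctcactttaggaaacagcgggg

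The 2 sites of *Ifit3* were identical over 30 bases to those of its near copy *Ifit3b*, and the sites of *Oas1a* were identical to those of *Oas1g*. The core of interferon-γ response elements, TTCNNNGAA, was in 8 of the 40 members (20.0%) and in 9.55% of all genes. The TEAD core GGAATG was in 5 members (12.5%) and in 16.6% of all genes. These matches describe letters and not binding.

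**Figure D1:**
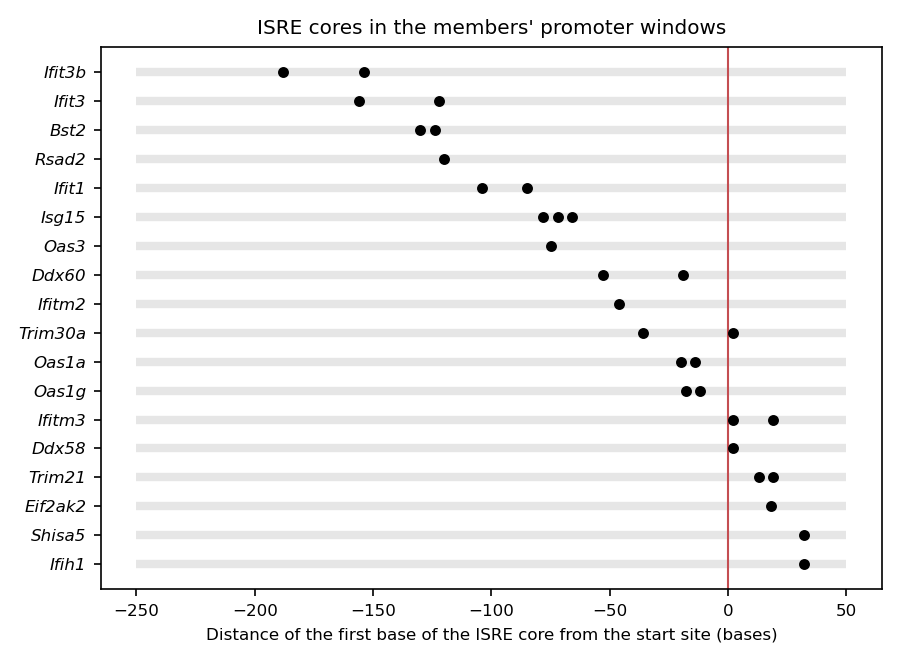
Position of each ISRE core in the promoter windows of the 18 members that hold one. The x axis is the distance in bases from the annotated start site (red line) to the first base of the core, grey bars are the windows, and each point is 1 core. The cores of Ifit3b lie farthest before the start, from -188 bases, and those of Ifih1 and Shisa5 lie at 32 bases after it.

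The siCtrl library held 140815237 reads counted on genes and the si*Vgll3* library 125789276. *Vgll3* itself had 42925 reads and 202 TPM in siCtrl, and 16524 reads and 84.0 TPM in si*Vgll3*, so that 41.6% of its siCtrl TPM was left. Myofibroblast markers were abundant in both libraries, with *Acta2*, the smooth muscle actin of myofibroblasts, at 3296 and 3866 TPM. They did not move one way, on the scale and calls explained with the comparison below. Of the 14, 6 were lower (42.9%), such as *Postn* at M -1.22, against 11.4% of all genes at A above 0. Another 3 were higher, such as *Cnn1* at 1.13, where 5.73% of all genes were higher. The 12 leukocyte markers summed to 14.0 TPM under siCtrl and 6.40 TPM under si*Vgll3*. *Lyz2* was at 10.9 and 3.13 TPM, *Csf1r* at 1.29 and 1.83 TPM and *Cd68* at 1.21 and 1.14 TPM, so that the lower sum came from *Lyz2*. Of the 12, 6, including *Ptprc*, which encodes the CD45 used to deplete leukocytes, had no read in either library. Of the 5 markers of plasmacytoid dendritic cells, *Siglech* and *Ccr9* were also at 0. *Bst2*, itself a member of the module, was at 82.6 and 21.9 TPM, *Tcf4* at 45.5 and 30.1 TPM and *Irf8* at 58 and 60 reads. Of the 8 cardiomyocyte markers, 6, *Myh6* among them, had no read, while *Tnnt2* was at 60.0 and 10.4 TPM. The 8 endothelial markers summed to 27.3 and 24.0 TPM, and the lower sum came mainly from *Tek*, at 19.5 and 13.4 TPM. *Pecam1* and *Cdh5* were at M 0.47 and 0.50. *Cldn5* had 11 and 94 reads and *Kdr* 81 and 146, while *Emcn*, *Tie1* and *Vwf* were at M -0.02, -0.04 and -0.51. The part of these markers in the results below was not tested. In bulk RNA, fewer cells of a type and less RNA per cell cannot be told apart.

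The antiviral effector genes were lower in the si*Vgll3* library almost throughout the module. The difference is given as M, the log2 ratio of si*Vgll3* TPM to siCtrl TPM, for genes with A above 0, where A is the log2 of the mean TPM of both libraries. A gene was called lower at M below -0.5, which leaves 70.7% of the siCtrl TPM, and higher at M above 0.5. Of the 43 members at A above 0, 33 were lower (76.7%), against 11.4% of the 11754 genes at A above 0. No member was higher, against 5.73% of all genes. At a threshold of 1, 24 members were lower, against 3.27% of all genes. A takes the mean of both libraries, so a gene can pass the filter through its siCtrl level. This holds for *Ifi27l2a*, *Oas1a*, *Oasl1*, *Dhx58*, *Cmpk2* and *Ifi44*, which were at 0.41 to 0.80 TPM in si*Vgll3*. They count as lower at both thresholds. All 43 members had an M below 0, against 57.0% of all genes. The median M was -1.04 over the members, so that the median member kept 48.8% of its siCtrl TPM, and -0.05 over all genes. Each M has an interval beside it, found from both read counts by the exact Clopper-Pearson method at 95% and set around M, which covers counting error only. It lay wholly below 0 for all 43 members and wholly below -0.5 for 32 of them.

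Summed over the module, TPM came to 3427 with siCtrl and 2056 with si*Vgll3*, which is 60.0% of the siCtrl sum. This was 0.343% of all TPM in siCtrl and 0.206% in si*Vgll3*. *Ifitm2* and *Ifitm3* alone made up 61.7% of the siCtrl sum, and without both the module kept 60.6% of its siCtrl level. The levels of the other members were far lower, and the median over the 43 members was 16.1 TPM under siCtrl and 6.00 TPM under si*Vgll3*.

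**Figure D2:**
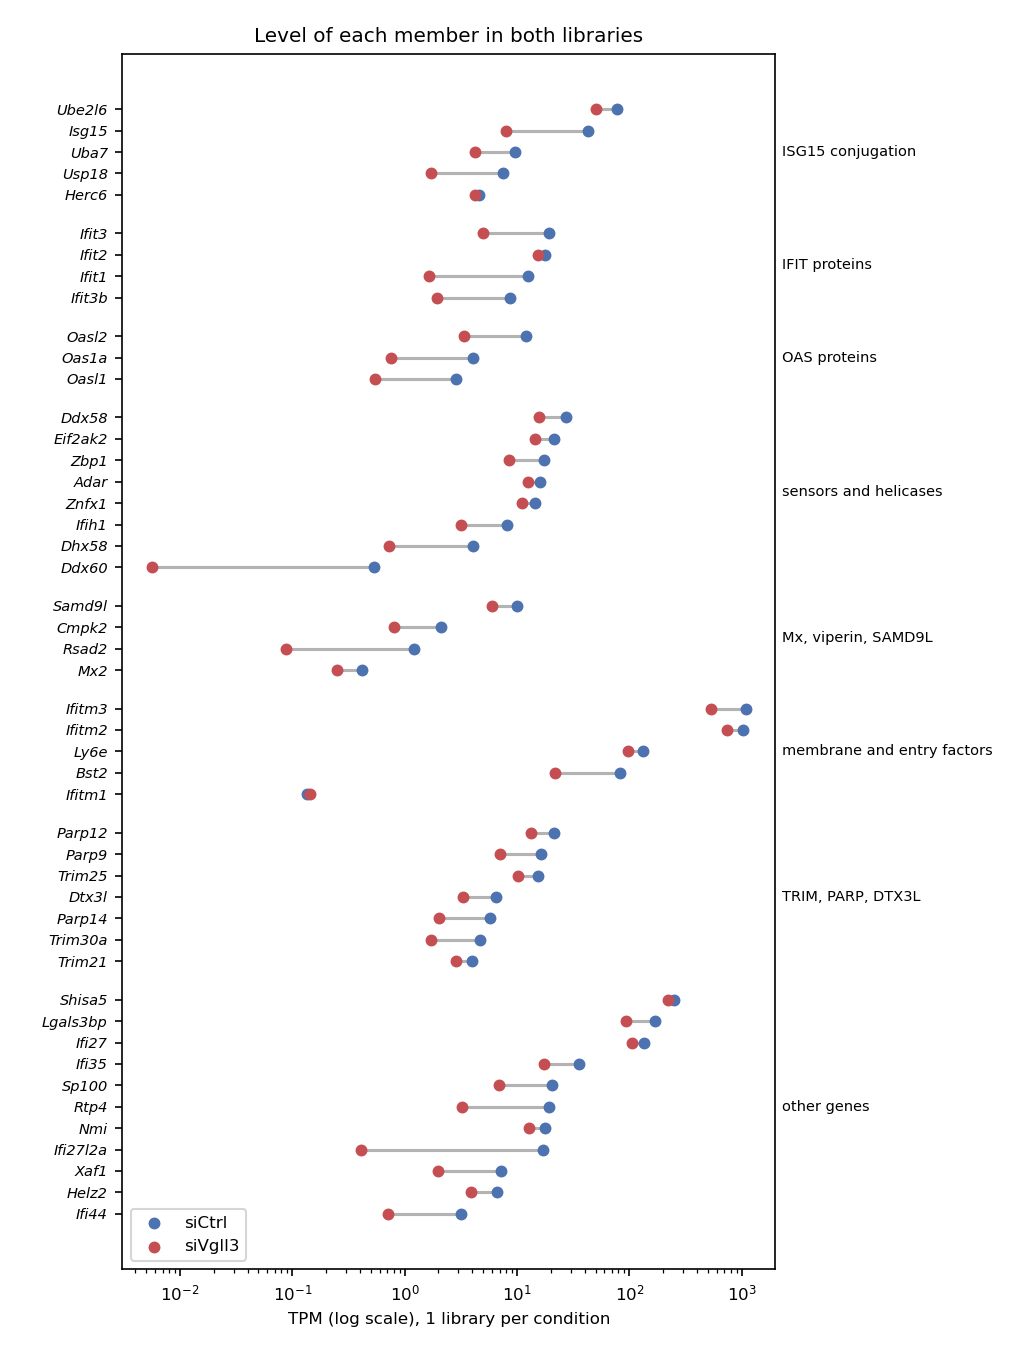
TPM of the 47 members with a TPM in siCtrl (blue) and si*Vgll3* (red), on a log scale and grouped by role, with 1 library per condition and a grey line joining both values. The si*Vgll3* point lies to the left of the siCtrl point for every member except Ifitm1, which is at 0.13 and 0.14 TPM.

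The first group conjugates ISG15 to other proteins. ISG15 is attached by the activating enzyme UBA7, the conjugating enzyme UBE2L6 and, in mice, the ligase HERC6, and is removed by the protease USP18. All 5 genes were at A above 0, and 4 were lower. *Isg15* had 2058 reads and 42.6 TPM in siCtrl, and 359 reads and 8.02 TPM in si*Vgll3*. Its M of -2.41 was the lowest of the group (counting interval -2.58 to -2.25). *Ube2l6*, the most abundant gene of the group, went from 6815 reads and 76.9 TPM to 4110 reads and 50.1 TPM, for an M of -0.62 (-0.67 to -0.56). The ligase stood apart from the enzymes it works with. *Herc6* had 1558 reads and 4.62 TPM in siCtrl, and 1331 reads and 4.27 TPM in si*Vgll3*. Its M of -0.12 (-0.22 to -0.01) was the highest of all 43 members. Of the stretches of 50 bases in *Herc6*, 23.8% also occur in another gene. *Uba7* was at -1.18 and *Usp18*, which also damps IFNAR signalling, at -2.15. The modifier and its protease thus differed most, while the ligase was nearly level.

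The IFIT proteins bind viral RNA and hinder its translation. Their 4 genes lie beside each other on chromosome 19 in the order *Ifit2*, *Ifit3*, *Ifit3b* and *Ifit1*, from chr19:34550550-34576534 for *Ifit2* to chr19:34640889-34650009 for *Ifit1*. *Ifit1* had 2109 reads and 12.5 TPM in siCtrl, and 259 reads and 1.66 TPM in si*Vgll3*, for an M of -2.92 (-3.11 to -2.73). *Ifit3*, the most abundant in siCtrl, went from 2461 reads and 19.3 TPM to 589 reads and 4.99 TPM, for an M of -1.95 (-2.08 to -1.82). *Ifit3b* was at M -2.17. *Ifit2* did not share this difference, although it ends 6584 bases before *Ifit3*. It had 4439 reads and 17.6 TPM in siCtrl, and 3559 reads and 15.2 TPM in si*Vgll3*, for an M of -0.21 (-0.27 to -0.14). The counting interval of *Ifit2* did not overlap those of its 3 neighbours. *Ifit3* and *Ifit3b* share 51.2% and 45.0% of their stretches of 50 bases with another gene, so the split of reads between these copies is uncertain. Their summed level does not rest on that split.

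The oligoadenylate synthetases (OAS) make the messenger that activates RNase L, which cuts RNA, and the OASL proteins are their relatives. Of the 6 genes, 3 were at A above 0, and all 3 were lower. *Oasl2*, the most abundant, went from 2401 reads and 12 TPM to 626 reads and 3.38 TPM, for an M of -1.83 (-1.96 to -1.70). *Oas1a* had 491 reads and 4.07 TPM in siCtrl, and 85 reads and 0.76 TPM in si*Vgll3*, for an M of -2.42 (-2.77 to -2.08). *Oasl1* was close to it at -2.39. The other 3 genes had reads in siCtrl alone and no listed TPM. *Oas2* was at 70 reads in siCtrl and at 0 in si*Vgll3*. StringTie can leave out genes of low coverage, so a 0 may be a missing estimate, and no fold is given for these genes. *Oas1g* was at 48 and 0 reads, and *Oas3* at 8 and 0 reads. How often a 0 occurred depended on the reads in siCtrl. Of 684 genes with siCtrl reads within 1.5 times those of *Oas2*, 9 (1.32%) had 0 reads in si*Vgll3*, against 206 of 664 (31.0%) at the level of *Oas3*. The value of *Oas3* thus lies where a 0 is common. *Oas1a* and *Oas1g* share 57.6% and 54.7% of their stretches of 50 bases with another gene, so their reads too can be split in more than 1 way.

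The sensors and helicases detect or act on foreign nucleic acid. They include the RIG-I-like receptors RIG-I (*Ddx58*), MDA5 (*Ifih1*) and LGP2 (*Dhx58*), the Z-form sensor ZBP1, the kinase PKR (*Eif2ak2*) and the RNA editor ADAR. Of the 8 genes, 7 were at A above 0, and 5 of the 7 were lower. *Ddx58*, the most abundant, had 8555 reads and 27.1 TPM in siCtrl, and 4540 reads and 15.5 TPM in si*Vgll3*, for an M of -0.80 (-0.85 to -0.75). *Dhx58* went from 624 reads and 4.05 TPM to 105 reads and 0.73 TPM, for an M of -2.47 (-2.78 to -2.17). The 3 RIG-I-like receptors thus differed in order of their level, with *Ifih1* between the others at M -1.36. *Zbp1* was at -1.04 and *Eif2ak2*, just past the threshold, at -0.56. *Adar* was at -0.37, outside the call. *Znfx1*, an RNA helicase that works with MAVS, had the highest M of the group, with 6598 reads and 14.3 TPM in siCtrl, and 4724 reads and 11.1 TPM in si*Vgll3*, for an M of -0.37 (-0.42 to -0.32). *Ddx60*, a helicase linked to RIG-I signalling, was below the filter on A and almost without reads in si*Vgll3*. It had 204 reads and 0.53 TPM in siCtrl, and 2 reads and 0.01 TPM in si*Vgll3*, for an M of -6.55 with a wide counting interval of -9.61 to -4.68. Its window held 2 ISRE cores.

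The Mx GTPases block viral replication, viperin (*Rsad2*) makes a chain-terminating nucleotide with the kinase CMPK2, and SAMD9L restricts poxviruses. Of the 5 genes, 2 were at A above 0, and both were lower. *Samd9l* had 3401 reads and 10.0 TPM in siCtrl, and 1891 reads and 6.00 TPM in si*Vgll3*, for an M of -0.74 (-0.82 to -0.65). *Cmpk2* went from 428 reads and 2.10 TPM to 151 reads and 0.80 TPM, for an M of -1.39 (-1.67 to -1.12). The rest of the group was scarce in both libraries. *Rsad2*, at chr12:26442743-26456452 and 12664 bases from *Cmpk2*, had 294 reads and 1.22 TPM in siCtrl, and 20 reads and 0.09 TPM in si*Vgll3*. Its M was -3.78 (-4.51 to -3.12). *Mx2* had 65 and 36 reads, for an M of -0.72 (-1.35 to -0.11). *Mx1*, which is defective in C57BL/6 mice, was at 10 reads in siCtrl and at 0 in si*Vgll3*, where 27.4% of genes with like siCtrl reads were at 0.

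The membrane group holds the most abundant members of the module. The IFITM proteins hinder fusion of viruses with cell membranes, tetherin (*Bst2*) holds new virus particles to the cell, and LY6E acts at the membrane on the entry of several viruses. Of the 5 genes, 4 were at A above 0, and 2 were lower. *Ifitm3* had 44716 reads and 1081 TPM in siCtrl, and 20221 reads and 528 TPM in si*Vgll3*, for an M of -1.03 (-1.06 to -1.01). *Bst2* went from 4039 reads and 82.6 TPM to 990 reads and 21.9 TPM, for an M of -1.92 (-2.02 to -1.82). *Ifitm2*, at 1034 and 733 TPM, had an M of -0.496 and so missed the threshold narrowly. *Ifitm2* and *Ifitm3* were near each other in siCtrl, and *Ifitm2* was the higher of the pair in si*Vgll3*. Of the stretches of 50 bases in *Ifitm2*, 48.5% also occur in another gene. *Ly6e* had the highest M, with 18020 reads and 133 TPM in siCtrl, and 12945 reads and 97.1 TPM in si*Vgll3*, for an M of -0.46 (-0.49 to -0.42). *Ifitm1*, which lies between *Ifitm2* and *Ifitm3* on chromosome 7, had 7 reads in each library, too few to give it a direction.

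The next group holds TRIM ligases, PARP enzymes and DTX3L, a ligase that works as a pair with PARP9. TRIM21 is a cytosolic antibody receptor and TRIM25 is a ligase of the RIG-I pathway. All 7 genes were at A above 0, and 6 were lower. *Parp12*, the most abundant, had 4376 reads and 21.2 TPM in siCtrl, and 2530 reads and 13.3 TPM in si*Vgll3*, for an M of -0.68 (-0.75 to -0.61). *Parp14* went from 2652 reads and 5.73 TPM to 870 reads and 2.03 TPM, for an M of -1.50 (-1.61 to -1.39). *Parp9* and its partner *Dtx3l* were at -1.20 and -0.97. Their annotated intervals overlap by 558 bases. *Trim30a* was at -1.47, and *Trim25* at -0.59. *Trim21* was the exception, with 712 reads and 3.99 TPM in siCtrl, and 473 reads and 2.87 TPM in si*Vgll3*. Its M of -0.48 (-0.65 to -0.31) had an interval on both sides of the threshold. The window of *Trim21* held 2 cores, which overlap.

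The last group collects 12 other interferon-induced genes with varied or less settled roles. Of these, 11 were at A above 0, and 8 were lower. *Ifi27l2a*, which encodes a small membrane protein of the ISG12 family, had 509 reads and 17.2 TPM in siCtrl, and 16 reads and 0.41 TPM in si*Vgll3*. It kept 2.38% of its siCtrl TPM, and its M of -5.39 (-6.21 to -4.68) was the second lowest of all 11754 genes. On read counts alone its M was -4.83. Of the 43 members, 2, this gene and *Sp100*, had TPM and count ratios that departed from each other by over 0.1 beyond the usual offset. Its relative *Ifi27*, whose annotated interval at chr12:103434189-103440245 lies inside that of *Ifi27l2a* at chr12:103433873-103443680, was at 136 and 105 TPM, for an M of -0.38. Reads of these 2 overlapping genes may not be cleanly separated. Across the module, 17 of the 52 annotated intervals overlap another gene and 10 overlap one with reads, *Ifit1* and *Ifit1bl1* among them, and the strand setting of the counts was not given. *Rtp4*, a regulator of the response, was at -2.57, *Ifi44* at -2.14 and *Xaf1*, a proapoptotic gene, at -1.85. *Sp100*, a nuclear body protein, was at -1.54 on TPM and at -1.20 on counts. *Ifi35* was at -1.03, *Lgals3bp*, a secreted glycoprotein, at -0.87 and *Helz2* at -0.77. *Nmi*, the partner of IFI35, was just outside the call at -0.49. *Shisa5*, the most abundant of the group and a membrane protein of the endoplasmic reticulum, had 30062 reads and 249 TPM in siCtrl, and 24776 reads and 220 TPM in si*Vgll3*. Its M was -0.17 (-0.20 to -0.15). *Epsti1* had 2 and 11 reads, and no TPM.

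**Figure D3:**
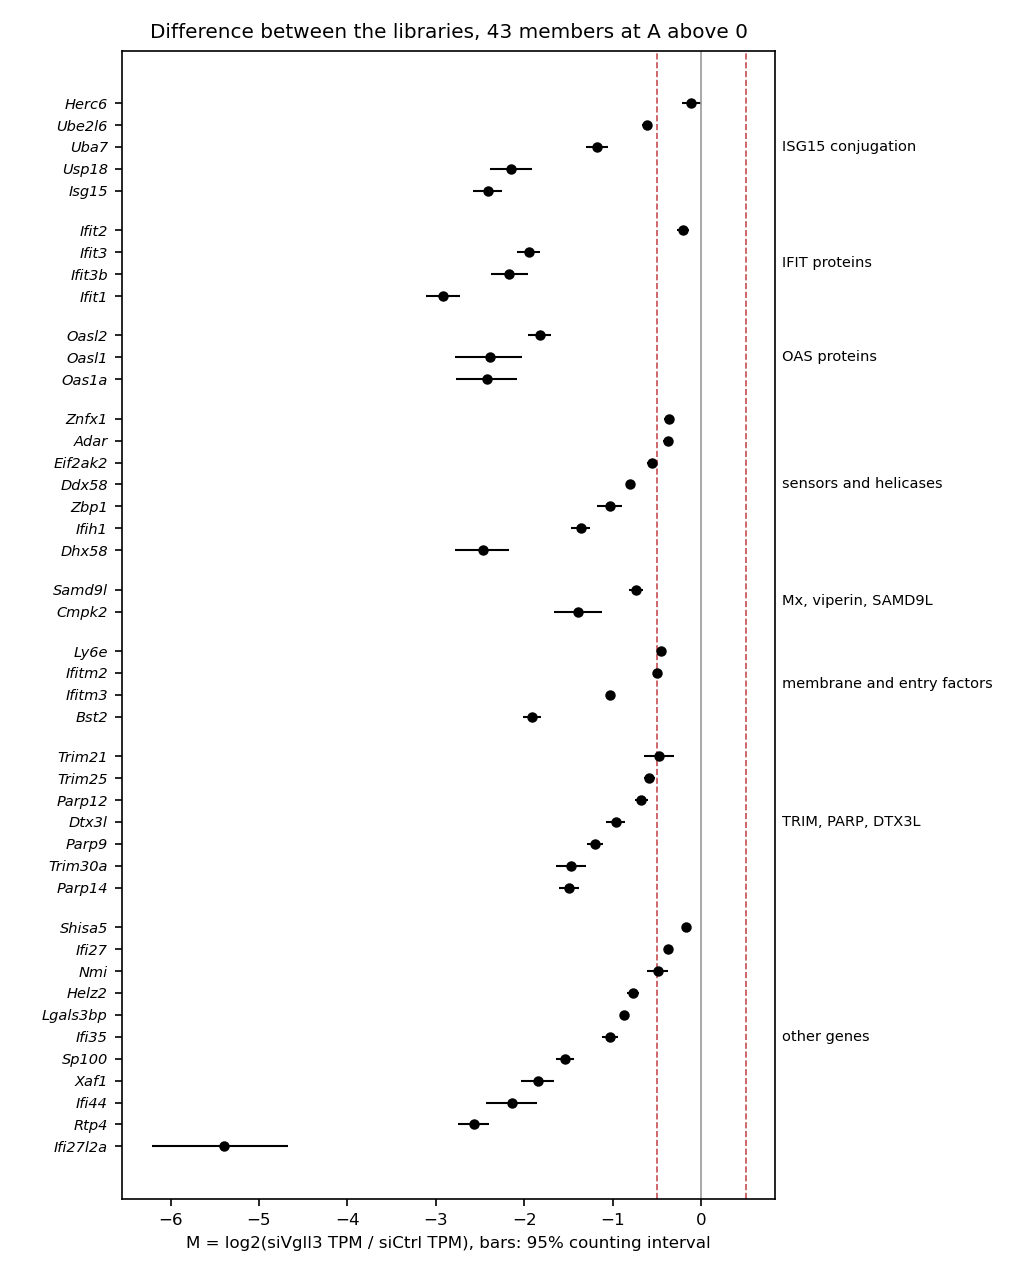
M of the 43 members at A above 0, grouped by role. Points are log2 ratios of si*Vgll3* to siCtrl TPM, bars are 95% counting intervals, and dashed lines mark -0.5 and 0.5. All points lie left of 0, from -5.39 for Ifi27l2a to -0.12 for Herc6, and 33 lie left of -0.5.

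The role groups differed in their medians. The median M was -2.39 for the OAS proteins (3 genes), -2.06 for the IFIT proteins (4 genes), -1.18 for ISG15 conjugation (5 genes), -1.06 for the Mx, viperin and SAMD9L group (2 genes) and -1.03 for the other interferon-induced genes (11 genes). It was -0.97 for the TRIM, PARP and DTX3L group (7 genes), -0.80 for the sensors and helicases (7 genes) and -0.76 for the membrane group (4 genes). These medians rest on 2 to 11 genes each.

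Members with a low level in siCtrl had the lower M. The median M was -1.47 for the 17 members under 10 TPM in siCtrl, -1.03 for the 18 members from 10 TPM to under 50 TPM and -0.56 for the 8 members at 50 TPM or more. Over all genes the same classes had medians of -0.06, -0.06 and -0.01. The siCtrl TPM enters both the class and M, so this is a description only. Of the 100 genes with the lowest M among all 11754, 14 were members, where the members are 43 of the 11754. Another 8 of the 100 were in the other interferon lists described below.

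**Figure D4:**
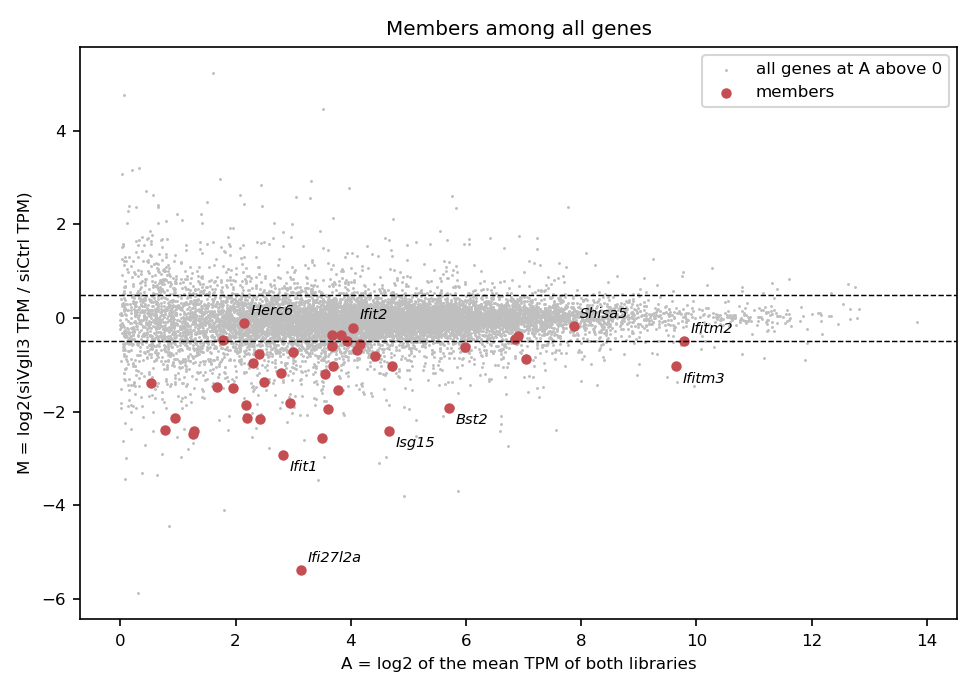
M against A for the 11754 genes at A above 0 (grey) and the 43 members among them (red), with dashed lines at -0.5 and 0.5. The members lie below 0 at every level, and the abundant Shisa5 and Ifitm2 lie closer to 0 than Isg15 or Ifit1.

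The 10 members at A above 0 that were not called lower were *Herc6*, *Ifit2*, *Adar*, *Znfx1*, *Ifitm2*, *Ly6e*, *Trim21*, *Ifi27*, *Nmi* and *Shisa5*. *Ifitm2* at -0.496 and *Nmi* at -0.49 were just outside the threshold, and *Eif2ak2* at -0.56 and *Trim25* at -0.59 were just inside it. The counting interval stayed above -0.5 for 7 of the 10 and reached past it for 3, *Ifitm2*, *Nmi* and *Trim21*.

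The promoter letters and the differences were set side by side. Among members with a window, the 14 that held an ISRE core and were at A above 0 had a median M of -1.42, and 11 of them were lower. The 20 without a core had a median M of -0.82, and 15 of them were lower. All 8 members with the stricter GAAANNGAAACT were lower, with a median M of -1.93, from -2.92 for *Ifit1* to -0.80 for *Ddx58*. Of the 26 members without these letters, 18 were lower, with a median M of -0.75, and of the 29 genes outside the module that held them, 34.5% were lower. *Shisa5*, *Trim21* and *Ifitm2* held a core and were not called lower, while *Oasl1* at -2.39 was lower with no core in its window. *Shisa5* has several windows, and all but the one with the core held none. Among genes that are no members, 15% of the 333 with a core and 10.1% of the 8996 without one were lower.

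Genes upstream of the module were followed to see where in the interferon pathway the difference was present. Of 21 interferon genes, 19 had no read in either library, *Ifng* included. *Ifnb1*, which encodes interferon-β, was at 0 reads in siCtrl and at 14 in si*Vgll3*. Of the 1341 genes with 10 to 40 reads in si*Vgll3*, 258 had none in siCtrl. The other interferon gene with reads, *Ifnz*, had 42 and 36. In siCtrl, where the effector genes were higher, no interferon gene had more than 42 reads. These are RNA reads at a single time after transfection, and interferon protein was not measured. The part of interferon in the difference was not tested.

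Of 23 genes for receptors, JAK kinases, STAT and IRF factors and their inhibitors, 19 were at A above 0, with a median M of -0.26. Of these 19, 4 were lower (21.1%) and none was higher, against 11.4% and 5.73% of all genes at A above 0. *Stat2*, *Irf9* and *Irf7* were among the lower genes. *Stat2* went from 17.1 to 5.61 TPM, for an M of -1.60. *Irf9* went from 30.8 to 10.2 TPM, for an M of -1.59. *Irf7*, the interferon-induced factor that amplifies the response, had the lowest M at -2.61, with 15.6 and 2.57 TPM. These genes are themselves induced by interferon. The receptor genes differed less, with *Ifnar1* at 26.0 and 20.8 TPM (M -0.33), *Ifnar2* at 85.2 and 87.0 TPM (M 0.03) and *Ifngr2*, the highest of the list, at M 0.27.

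Of 16 genes that lead to the production of interferon, 13 were at A above 0. Of these 13, 1, *Ikbke* at M -0.59, was lower (7.69%), a share below the 11.4% of all genes at A above 0. *Tbk1*, the related kinase, was the highest at 0.16. The list's median M was -0.22.

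Other interferon-induced families were mixed. Of 19 genes for GBP and IRG GTPases, which attack the vacuoles of intracellular pathogens, 10 were at A above 0, with a median M of -1.69. Of these 10, 8 were lower (80.0%), against 11.4% of all genes at A above 0. *Igtp* was the lowest at -2.77 and *Ifi47* the highest at -0.36. Of 20 genes for MHC class I antigen presentation, 17 were at A above 0, with a median M of -0.50. Of these 17, 9 were lower (52.9%) and 1 was higher, against 11.4% and 5.73% of all genes at A above 0. *Psmb9*, a subunit of the immunoproteasome, was the lowest at -2.02, and *H2-T22* the highest at 0.51. Of 4 interferon-induced chemokine genes, 2 were at A above 0, with *Cxcl10* at -3.35 and *Ccl5*, with a counting interval on both sides of 0, at -0.38. *Cxcl10* had 199 reads and 2.83 TPM in siCtrl, and 18 reads and 0.28 TPM in si*Vgll3* (counting interval -4.14 to -2.66). It thus passed the filter on A through its siCtrl level. The median of the effector genes lay between those of the GTPases and of antigen presentation, and no test sets these lists apart.

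**Figure D5:**
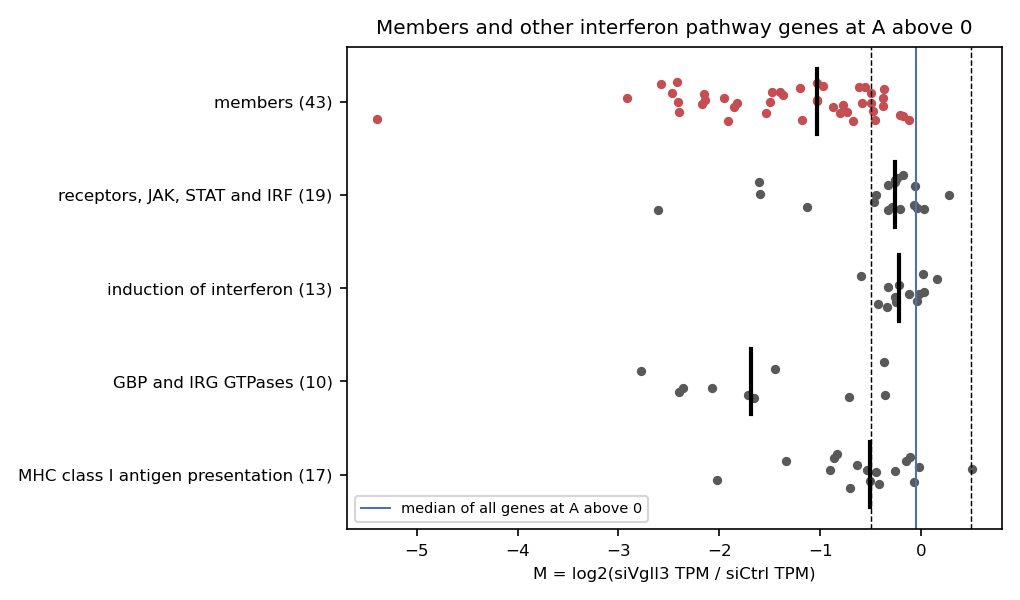
M of the members and of 4 other interferon pathway lists at A above 0, with 1 point per gene, a black bar at each list's median, a blue line at the median of all genes and dashed lines at -0.5 and 0.5. The numbers of genes are in brackets on the y axis, and the vertical spread of points within a list has no meaning. The medians are -1.04 for the members, -0.26 for receptors, JAK, STAT and IRF, -0.22 for induction of interferon, -1.69 for the GTPases and -0.50 for MHC class I.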

How the data were processed

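RNA was measured in 2 libraries of cardiac myofibroblasts, 1 for siCtrl and 1 for si*Vgll3*. The authors prepared them with the TruSeq Stranded mRNA LT kit and sequenced them on an Illumina NovaSeq. Reads were checked with FastQC, trimmed with Trimmomatic (reads under 36 bp were removed), mapped to mm10 with HISAT2 and assembled on known genes with StringTie. Versions and the strand setting were not given in the sources used here. The authors deposited raw read counts per gene, whole numbers with no normalisation, and TPM per gene, scaled by them for length and depth. M and A were computed from TPM with nothing added, and called lower at M below -0.5 with A above 0, the study's stated rule. The call of higher genes at M above 0.5, the use of TPM and the formula of A were chosen here. With these choices 1341 genes were lower, which is not the number the study reports. Counting intervals used scipy 1.17.1 and were checked on simulated counts that held counting error alone, the error they assume. That check does not cover shared sequence or overlapping genes. edgeR 4.0.16 and DESeq2 1.42.0 gave scaling factors only. Depth was 140815237 and 125789276 reads.

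Positions and promoter windows came from RefSeq GRCm38.p6, the patched mm10 assembly, and shared stretches of 50 bases from GENCODE vM21 transcripts. Members, lists, thresholds and the rule for naming genes were chosen with earlier results of these data known. Full values are given for the member with the highest siCtrl TPM, the lowest M and the highest M of each role group and for members below the filter, and other members are named with M. Of the upstream genes, the main pathway genes and each list's lowest and highest M are named. One gene that the rule names is not reported here. The alternatives tried were other scalings, added TPM, filters, thresholds, summed copies and members without overlaps.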

Additional observations from a re-analysis of the deposited data

How the results depend on the processing

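No paired analysis was possible because siCtrl and si*Vgll3* have 1 library apiece, and for the same reason no library could be left out. Read counts scaled by CPM, TMM or DESeq2 size factors, 0.1 or 1 TPM added, and centring on the median of all genes each left 33 members lower, the same genes, and 0 higher. The count of lower members was 26 of 35 at A above 2, 36 of 47 with no filter on A, 35 of 45 with at least 10 reads in each library, 32 of 42 with near copies summed, 24 at a threshold of 1 and 32 with the whole counting interval past 0.5. It was 20 of 26 without the members that overlap another gene, because fewer members remained. Shares over all genes are not given for these alternatives, apart from the 3.27% at a threshold of 1. The 11.4% belongs to the main setting only. The median M ranged from -1.04 to -0.97 over its alternatives. The summed level in si*Vgll3* was 60.0% of siCtrl on TPM, 64.1% on CPM, 63.7% with TMM, 63.6% with DESeq2 size factors and 65.1% without *Ifitm3*. The ISRE core was in 18 of 40 members, in 10 when followed by CT, and in 24 when 1 or 2 bases were allowed between the repeats, a setting chosen after the data were seen. With 1 TPM added, M of 22 members moved outside its counting interval, and on CPM that of 7, with no change of sign. Members with few reads, such as *Oas3*, *Mx1*, *Ifitm1* and *Epsti1*, give no size at this depth.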

Other observations

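The stricter ISRE letters GAAANNGAAACT were also looked up in genes outside the module. Among genes at A above 0 that are no members, 29 held them in a promoter window, and 10 of these were lower and 2 higher, against 10.2% lower among the 9300 without them. Of the 29, 6 were in the other interferon lists described above. The remaining 23 had a median M of -0.18, with 6 lower and 1 higher. The 6 lower genes, named after their values were seen, were *Slfn8* at M -1.86, *Plekha4* at -1.39, *Trim30d* at -1.39, *Trim34a* at -0.87, *Apol9a* at -0.75 and *Clca3a1* at -0.57. *Slfn8* went from 720 reads to 188, and *Clca3a1*, the most abundant of the 6, had 196 and 132 TPM. *Sema6b* was the higher gene, at 1.04 with 254 and 484 reads. *Oas1c*, a relative of *Oas1a* with the same letters, was at -0.31, with a counting interval of -0.65 to 0.02, and *Apobec3*, which encodes an antiviral cytidine deaminase, was at 0.06 with 14.4 and 14.98 TPM. These genes are listed as values, with no test.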
